A study of Mus musculus with 6 samples.

Results

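The genes described here encode the proteins of the cytosolic ribosome. They were chosen by symbol alone: every gene named Rpl or Rps followed by a number, with the endings a, l, x, al or l1 allowed, plus Rplp0, Rplp1, Rplp2 and Rpsa. The rule found 83 genes among the 17060 listed for the series, 52 of the large subunit and 31 of the small subunit. All 83 have coordinates on mouse GRCm38, the assembly that mm10 names, and they lie on 19 chromosomes, with 14 on chromosome 7 and 4 on the X chromosome. The rule leaves out genes such as Fau and Rack1, which encode ribosomal components under other names, and Rps3a1, whose symbol ends differently. These genes are given apart.

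Lineage-negative BM cells, the marrow fraction depleted of mature blood cells, were taken from wild-type mice and cultured in EPO-containing medium, which drives them toward red cells. In all, 3 cultures received DMSO, the vehicle, and 3 received NUP-17d at 10 μM in the study's methods, each for 48 h. NUP-17d is a small molecule that the study developed to bind Plek2, a pleckstrin homology domain protein of erythroid cells. Both groups share the wild-type background and the medium. The labels call the cells erythroblasts and give no age, sex or mouse of origin, so the p-values measure the spread between these cultures only. The values are expected counts, the number of reads estimated to come from each gene, and each library summed to between 20076409 and 20419018 of them.

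Ribosomal proteins bind ribosomal RNA to build the large subunit, which joins amino acids, and the small subunit, which decodes the mRNA. Growing cells make them in near equal numbers, and erythroid precursors are unusually sensitive to a shortage: loss of a single copy of genes such as RPS19 causes Diamond-Blackfan anemia, a failure of red cell production. Their mRNAs begin with a C and an unbroken run of pyrimidines, the terminal oligopyrimidine or TOP motif, through which the kinase complex mTORC1 and the RNA-binding protein LARP1 set how much of the mRNA is translated. The counts here measure mRNA and say nothing of its translation.

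An annotated RefSeq start is shown for 11 genes that passed the test between treatments, since this motif is the sequence the family shares. Each window runs from 10 bases before the RefSeq start to 20 bases from it, on the gene's strand of GRCm38.p6, with the longest pyrimidine run in capitals.
Rps27: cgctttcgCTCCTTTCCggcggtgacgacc
Rpl13a: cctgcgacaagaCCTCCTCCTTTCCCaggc
Rpl18: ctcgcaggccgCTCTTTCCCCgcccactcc
Rps10: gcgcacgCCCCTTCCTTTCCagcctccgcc
Rps15a: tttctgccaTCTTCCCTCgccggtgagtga
Rps6: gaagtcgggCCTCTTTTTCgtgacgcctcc
Rpl39: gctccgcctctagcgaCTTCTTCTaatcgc
Rps7: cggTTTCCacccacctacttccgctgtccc
Rps16: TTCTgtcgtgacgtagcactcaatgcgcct
Rps2: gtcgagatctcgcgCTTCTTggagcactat
Rpl41: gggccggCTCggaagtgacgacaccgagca

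The Rps27 window lies at chr3:90213629-90213658 on the minus strand, Rpl13a at chr7:45128726-45128755 on the minus strand and Rpl39 at chrX:37085203-37085232 on the minus strand. The Rps2 window lies at chr17:24720053-24720082 on the plus strand and Rpl41 at chr10:128549149-128549178 on the minus strand. In Rps27, Rpl13a, Rpl39 and Rpl41 the window covers the outer end of the annotated gene. The Rps2 window lies inside its gene, which spans 24718121 to 24721927. The Rpl18 window, at chr7:45718061-45718090 on the plus strand, also lies inside its gene, which spans 45715467 to 45720835. For Rps2 and Rpl18 the window may therefore not hold the first bases of most of the mRNA. In Rps27, Rps10, Rps15a and Rps6 the run covered the annotated first base, and in Rpl18 it began at the next base. In Rps16 the longest run had 4 bases, and in Rpl41 it had 3.

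A promoter window of RefSeq matched 63 of the 83 genes, with 250 bases before the start and 50 after it. Within 5 bases of the start, on the gene's strand, 8 of the 63 genes (12.7%) held CTTTCC, the core of the TOP motif, against 0.703% of the 27025 genes with a window. The variant CTTTTC was found there in 2 genes (3.17% against 0.525%). The variant CTTTCT was also found in 2 (3.17% against 0.751%). The variant CTTTTT was found in 1 (1.59% against 0.437%). Together, 12 of the 63 genes (19.0%) held at least one of these 4, against 2.35% of all genes. A run of 7 or more pyrimidines in the 30-base window was present in 54.0% of the members and in 20.5% of all genes. It was present in 57.1% of the 14 called higher with a window and in 54.5% of the 44 not called, so the run was about as frequent in both. On either strand of the whole window, CCGGAAG, the core that ETS factors such as GABP bind, was found in 39.7% of members against 9.93% of all genes. The YY1-type AAGATGGC was found in 9.52% against 3.19%, the E-box CACGTG in 9.52% against 8.09%, and the TATA-type TATAAA in 12.7% against 15.7%. These letters describe the windows and are no evidence of a bound factor.

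Ribosomal protein mRNAs were among the most abundant of these cells. Of the 100 genes with the highest mean FPKM, a read count normalised for transcript length and library size, 46 were members. Per length, Rpl41, the smallest protein of the ribosome, had the highest mean over all 6 libraries, with an FPKM of 1462 ± 18.1 in DMSO and 1624 ± 83.8 in NUP-17d (mean ± SD, n = 3). Rps26, a small subunit protein at the mRNA exit, had an FPKM of 1344 ± 60.9 and 1654 ± 53.2, and in NUP-17d it did not differ from Rpl41 beyond their SDs. Rplp0 had an FPKM of 1246 ± 21.6 and 1442 ± 34.5, Rps2 of 1222 ± 25.8 and 1306 ± 13.6, and Rpl23a, at the exit of the peptide tunnel, of 1220.03 ± 11.6 and 1518 ± 19.7. In DMSO, the last 3 of these did not differ beyond their SD, while Rpl41 and Rps26 stood above them. The lowest of the 80 genes tested were Rpl7l1 (FPKM of 27.7 ± 2.19 in DMSO), Rps15a (42.0 ± 1.21), Rpl22l1 (57.9 ± 7.65), Rps20 (69.2 ± 1.25) and Rps27l (78.7 ± 1.82). Rps15a and Rps20 carry a transcript length of 5158 and 3446 bases in the files, which lowers their FPKM. The median member had a mean FPKM of 646, and 63 of the 80 lay between 250 and 1000.

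Another 3 members were too low to test. Rpl3l, the striated muscle relative of Rpl3, had between 1 and 4 reads per library. Rpl39l, the testis relative of Rpl39, had between 0 and 2 reads. Rpl32l had 4.66, 4.67 and 4.68 expected counts in DMSO and 12.5, 8.93 and 8.20 in NUP-17d. Rpl10l and Rps4l fit the symbol rule but were not listed for any of the 6 libraries.

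The comparison addressed what NUP-17d changed in the transcriptome of erythroid cultures. Counts were scaled by the trimmed mean of M values (TMM), which assumes that most genes do not change, and tested with edgeR's quasi-likelihood method. At an adjusted p under 0.05, 18 of 80 members (22.5%) were called, 16 higher and 2 lower. Of all 12306 genes tested, 35.3% were called, 16.4% higher and 18.9% lower. Among genes averaging 1000 counts or more, a depth that suits these abundant mRNAs, 56.3% of 3728 were called. The share of members called lay below both backgrounds. No test of that difference was made.

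The changes were small. The log2 fold change of the 80 members ran from -0.18 to 0.23, with a median of 0.04 and an SD across genes of 0.07, against an SD of 0.29 for all genes tested. Of the members, 72 (90.0%) had a fold change of less than 10% either way, against 51.1% of all genes and 55.5% of the genes with at least 1000 counts. The 2 groups of cultures did not overlap in 29 of 80 members (36.2%), against 46.0% of all genes tested. Across the 80 genes, the mean log2 FPKM in DMSO and in NUP-17d had a Pearson r of 0.998, so the order of the levels was nearly the same.

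**Figure D1:**
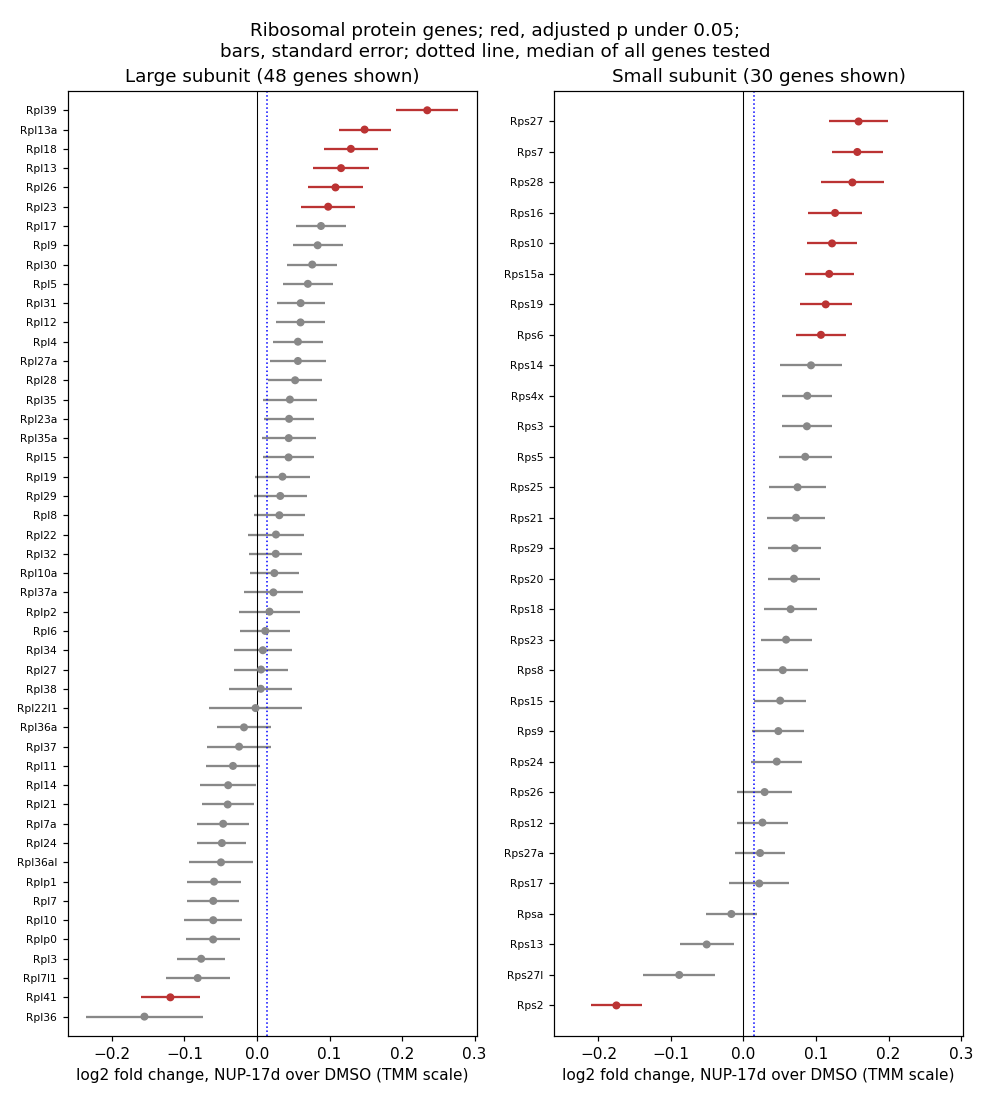
Log2 fold change of the tested ribosomal protein genes, NUP-17d over DMSO, with the standard error on the horizontal axis and genes ordered within the large subunit (left) and the small subunit (right), with 2 tested genes not shown. Red marks genes called; on this TMM scale they run from Rps2 at -0.18 to Rpl39 at 0.23, and most small subunit genes lie above 0, while without a composition correction Rps2 and Rpl41 also lie above 0.

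In the large subunit, 8 of 49 genes were called, 7 of them higher and 1 lower. Their median change on the log2 scale was 0.03. In the small subunit, 10 of 31 were called, 9 of them higher and 1 lower, around a median of 0.07. These are 16.3% of the large and 32.3% of the small subunit genes. Among all genes 35.3% were called, and among genes averaging 1000 counts or more 56.3%. On this TMM scale 14.3% of large and 29.0% of small subunit genes were called higher, and 2.04% and 3.23% lower. Among all genes 16.4% were called higher and 18.9% lower, and among those deeper genes 17.9% and 38.4%. The median of all genes tested was 0.01. A log2 fold change above 0 was measured in 32 of 49 large subunit genes and 27 of 31 small subunit genes.

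Rpl39, a small protein that lines the peptide tunnel of the large subunit, had the highest log2 fold change of the tested members. Its CPM, counts normalised for library size and composition, were 119, 123 and 117 in DMSO and 136, 135 and 152 in NUP-17d. Every treated culture lay above every control, and the rise was 17.7% (log2 fold change 0.23, SE 0.04, adjusted p = 8e-05).

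Rpl13a, Rpl18, Rpl13, Rpl26 and Rpl23 were also called higher in the large subunit. Rpl13a, which also acts in the GAIT complex that silences inflammatory mRNAs, had 685, 659 and 682 CPM in DMSO and 731, 733 and 781 CPM in NUP-17d. Its groups did not overlap (log2 fold change 0.15, SE 0.04, adjusted p = 0.0018). Rpl18 had 441, 416 and 426 CPM against 458, 454 and 493 CPM (log2 fold change 0.13, SE 0.04, adjusted p = 0.0078).

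Rpl41 was the large subunit gene called lower. It had 715, 672 and 698 CPM in DMSO and 619, 614 and 688 CPM in NUP-17d, so that the third treated culture lay within the range of the controls. The log2 fold change was -0.12 (SE 0.04, adjusted p = 0.022), and it was 0.15 when libraries were scaled by their totals alone. Rpl36 had a lower value of -0.16 that was not called (SE 0.08, adjusted p = 0.14), with 106, 99.7 and 103 CPM in DMSO and 79.1, 83.0 and 116 CPM in NUP-17d. It was singled out after its values were seen, as the gene whose treated cultures were spread most widely, with 1 above and 2 below all controls.

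The stalk of the large subunit recruits the elongation factors. None of its 4 genes was called by edgeR or DESeq2 or had an unadjusted p under 0.05 in edgeR, and their log2 fold changes were -0.06 for Rplp0 (SE 0.04), -0.06 for Rplp1 (SE 0.04), 0.02 for Rplp2 (SE 0.04) and 0.06 for Rpl12 (SE 0.03). Rplp0 is often used as a reference gene in quantitative PCR. It had 1907, 1851 and 1812 CPM in DMSO and 1724, 1777 and 1840 CPM in NUP-17d, which overlap. Scaled by library totals alone, the same gene was called higher, at a log2 fold change of 0.21.

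Rpl5 and Rpl11 travel with the smallest ribosomal RNA and, when free, bind MDM2, the ligase of p53. Rpl5 had 685, 656 and 671 CPM in DMSO and 696, 693 and 724 CPM in NUP-17d. The groups did not overlap, but the difference did not pass the test (log2 fold change 0.07, SE 0.03, adjusted p = 0.12). Rpl11 had 399, 382 and 398 CPM in DMSO and 376, 372 and 404 CPM in NUP-17d, with overlap (log2 fold change -0.03, SE 0.04, adjusted p = 0.52). Neither Rpl3, at the catalytic centre (log2 fold change -0.08, SE 0.03, adjusted p = 0.073), nor Rpl10, which joins late in maturation (-0.06, SE 0.04, adjusted p = 0.26), passed the test.

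Rps27, a zinc-finger protein of the small subunit, had the highest log2 fold change there. It had 227, 221 and 224 CPM in DMSO and 232, 251 and 267 CPM in NUP-17d. The groups did not overlap, though the first treated culture lay close to the controls (log2 fold change 0.16, SE 0.04, adjusted p = 0.0031). Rps7, another protein that can bind MDM2, had 604, 602 and 592 CPM against 669, 643 and 693 CPM, a rise of 11.5% (log2 fold change 0.16, SE 0.04, adjusted p = 0.0009). Rps16 had 491, 494 and 494 CPM against 521, 521 and 574 CPM (log2 fold change 0.13, SE 0.04, adjusted p = 0.010). Its 3 controls agreed closely and the third treated culture stood apart from the other two.

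Rps6 is the target of the S6 kinases, which act below mTORC1. It had 1134, 1118 and 1106 CPM in DMSO and 1180, 1198 and 1238 CPM in NUP-17d. All treated cultures lay above all controls, by 7.69% (log2 fold change 0.11, SE 0.03, adjusted p = 0.018). Rpsa, which is known also as a laminin receptor, had a log2 fold change of -0.02 (SE 0.04, adjusted p = 0.75). Rps14, the gene tied to the anemia of the human 5q- syndrome, had 386, 369 and 369 CPM against 365, 415 and 419 CPM, with overlap (log2 fold change 0.09, SE 0.04, adjusted p = 0.091). Rps4x, encoded on the X chromosome, had 827, 806 and 823 CPM against 851, 861 and 899 CPM (log2 fold change 0.09, SE 0.03, adjusted p = 0.0501), and its groups did not overlap.

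Rps2 was the small subunit gene called lower, on a scale corrected for composition. It lies by the entry of the mRNA channel and is known as the partner of the methyltransferase PRMT3. It had 1346, 1297 and 1353 CPM in DMSO and 1160, 1175 and 1204 CPM in NUP-17d. The groups were well apart (log2 fold change -0.18, SE 0.04, adjusted p = 0.00026). Scaled by library totals alone its log2 fold change was 0.09, below the median of all genes on that scale, which was 0.28.

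**Figure D2:**
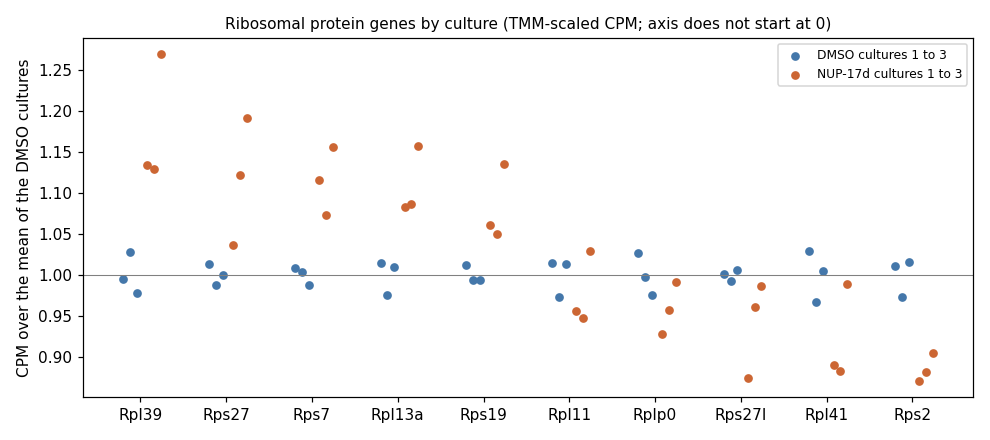
CPM of 10 ribosomal protein genes in each culture, divided by the mean of the 3 DMSO cultures of that gene (blue, DMSO; orange, NUP-17d; cultures 1 to 3 from left; TMM scale, axis not from 0). Treated cultures of Rpl39, Rps7 and Rpl13a sit above their controls and those of Rps2 below, at 1160 to 1204 CPM against 1297 to 1353 CPM, although Rps2 was higher under totals alone; of the treated cultures the third is the highest for each of the 10 genes.

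The third NUP-17d culture carried much of the difference. It had the highest of the 3 treated values in 74 of the 80 members, and the first had it in 0. The median member stood 0.01, 0.02 and 0.10 above the control mean on the log2 scale in the treated cultures 1, 2 and 3, while the median of all genes tested stood at 0.01 in each. Hemoglobin genes took 13.1% of its counts, against 11.8% and 11.9% in treated cultures 1 and 2, and the part of this in the result was not tested. Without that culture, 5 large subunit genes were called, 2 higher and 3 lower, and their median stood at -0.01. In the small subunit 5 were called, 4 higher and 1 lower, with a median of 0.04. Leaving out the third DMSO culture left 4 large subunit genes (4 higher, 0 lower) and 5 small subunit genes (4 higher, 1 lower), and leaving out the second DMSO culture left 4 and 7. Rpl39, Rpl13a, Rps27, Rps7, Rps15a and Rps2, 6 of the 18 genes called, were called in each of the 6 fits that left out 1 culture. The calls of 10 genes were lost without the third NUP-17d culture, among them Rpl13, Rpl18, Rpl23, Rpl26, Rps6, Rps16, Rps19 and Rps28. That of Rps10 was lost without the third DMSO culture, and that of Rpl41 in 4 of the 6 fits.

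Diamond-Blackfan anemia genes made up 19 of the members. Of these, 8 (42.1%) were called and all 8 were higher: Rps7, Rps10, Rps15a, Rps19, Rps27, Rps28, Rpl18 and Rpl26. Among all genes 35.3% were called and 16.4% called higher, and among genes averaging 1000 counts or more 56.3% were called and 17.9% called higher. The median log2 fold change of the 19 was 0.07. Of the other 61 members 10 were called, 8 higher and 2 lower, and the median was 0.03. Since 10 of the 19 are small subunit genes, this count overlaps with that of the small subunit, and no test of the difference was made. Rps19, the gene most often mutated in the disease, had 247, 243 and 243 CPM in DMSO and 259, 256 and 277 CPM in NUP-17d. The groups did not overlap, with a rise of 8.18% (log2 fold change 0.11, SE 0.04, adjusted p = 0.016), but Rps19 was not called without the third NUP-17d culture or without the second or the third DMSO culture.

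In 4 pairs of a ribosomal protein and its paralog, both genes were expressed enough to test. For Rps27l, a p53 target, over Rps27, the log2 ratio of counts was -2.40, -2.38 and -2.38 in DMSO and -2.63, -2.61 and -2.66 in NUP-17d. The ratio was lower by 0.25 in the treated cultures without overlap (exact permutation test, two-sided, p = 0.1, the smallest that 3 against 3 cultures allow; adjusted over the 4 pairs p = 0.4). Rps27l itself had a log2 fold change of -0.09 (SE 0.05, adjusted p = 0.17), and a ratio within a library shows unequal change without saying which gene moved. The ratios of Rpl7l1 to Rpl7, Rpl22l1 to Rpl22 and Rpl36al to Rpl36a differed by -0.02, -0.02 and -0.03 on the log2 scale, with overlapping groups (exact permutation p = 0.9, 1 and 0.7).

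The balance of the subunits does not depend on how the libraries are scaled. Summed counts of large over small subunit genes gave a ratio of 1.527, 1.516 and 1.520 in DMSO and 1.490, 1.496 and 1.499 in NUP-17d. The treated ratio was lower by 1.70% and the groups did not overlap (exact permutation test, two-sided, p = 0.1, the smallest possible). Over a sum of FPKM the change was -2.34%, also without overlap. Leaving out any 1 culture kept the difference between -1.86% and -1.51%.

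As a share of all counts, ribosomal protein genes took 3.45%, 3.52% and 3.50% in DMSO and 4.21%, 4.26% and 4.40% in NUP-17d, or 3.49 ± 0.04% against 4.29 ± 0.09% (mean ± SD, n = 3). The share was higher by 23.1% without overlap (exact permutation p = 0.1). Hemoglobin genes moved beside it: their 12 genes took 18.3 to 20.3% of counts in DMSO and 11.8 to 13.1% in NUP-17d. With hemoglobin genes left out of the total, the ribosomal protein share was 4.32%, 4.30% and 4.31% against 4.78%, 4.84% and 5.06%, higher by 13.4%, again without overlap. A share rises when other genes take fewer reads, and fewer erythroid cells and less hemoglobin mRNA in each cell cannot be told apart in these bulk libraries.

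**Figure D3:**
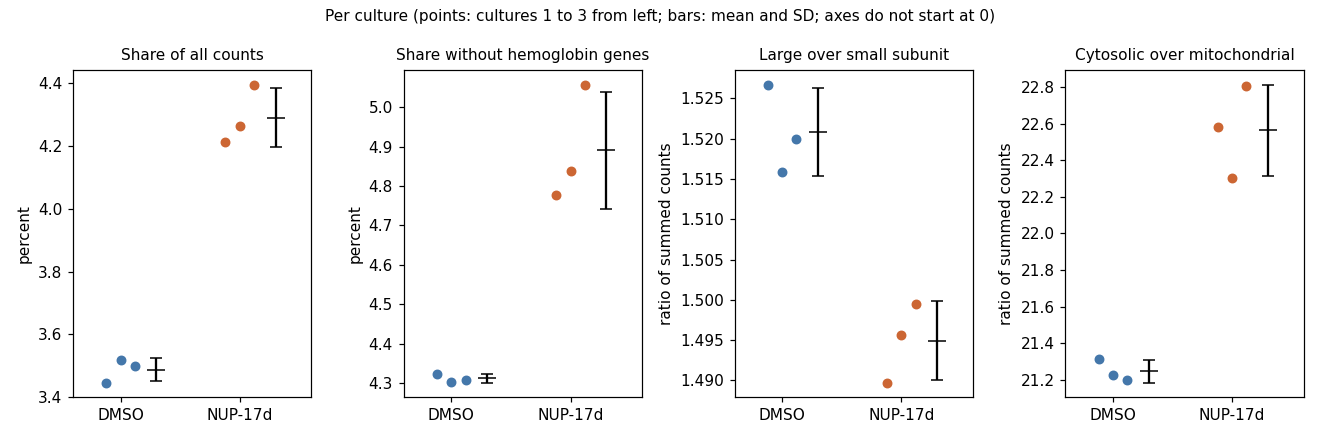
Per-culture values (blue, DMSO; orange, NUP-17d; bars, mean ± SD, n = 3; axes not from 0): the percent of all counts and of counts without hemoglobin genes that ribosomal protein genes took, and the ratios of summed large to small subunit and of cytosolic to mitochondrial ribosomal protein counts. Groups are apart in each panel, at 3.45 to 3.52% against 4.21 to 4.40% in the first and at 1.516 to 1.527 against 1.490 to 1.499 in the third.

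All 16 erythroid markers examined were called lower in NUP-17d, around a median of -0.73 on the log2 scale, and their summed level fell from between 219988 and 253994 CPM to between 121737 and 136128 CPM. Markers of other lineages moved in both directions. The summed level of 6 megakaryocyte markers was 347 to 381 CPM in DMSO and 400 to 420 CPM in NUP-17d, with 4 of 6 called higher, Gp1bb by the most (log2 fold change 0.47). That of 6 progenitor markers was 456 to 461 CPM and 475 to 494 CPM, with Kit and Meis1 called higher. For 10 granulocyte markers it was 3942 to 4109 and 4021 to 4301 CPM, with 2 called higher and 1 lower. For 7 macrophage markers it was 611 to 666 and 659 to 729 CPM, with 2 called higher, among them Cd68 (log2 fold change 0.30), and 2 lower, among them C1qa (-0.65). For 6 mast cell and basophil markers it was 208 to 225 and 186 to 192 CPM, with 1 called higher and 2 lower, among them Mcpt8 (-0.39). For 5 lymphoid markers it was 9.33 to 11.3 and 8.45 to 9.30 CPM, with 2 called lower, among them Ms4a1 (-1.66). No marker listed was at 0 in every library. The part of these shifts in the ribosomal protein values was not tested.

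The direction for the family depends on this composition. Scaled by library totals alone, the median of all genes tested rose to 0.28, and that of the large and small subunit to 0.29 and 0.34, with 48 of 49 and 31 of 31 genes called higher. With hemoglobin genes removed and totals alone, the all-gene median was 0.16 and the subunit medians were 0.18 and 0.22, with 44 and 29 genes called higher. Relative to the median of all genes, the large subunit stood 0.01 higher and the small subunit 0.06 higher under TMM, under both of those scalings, and under the DESeq2, relative log expression and upper quartile factors.

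**Figure D4:**
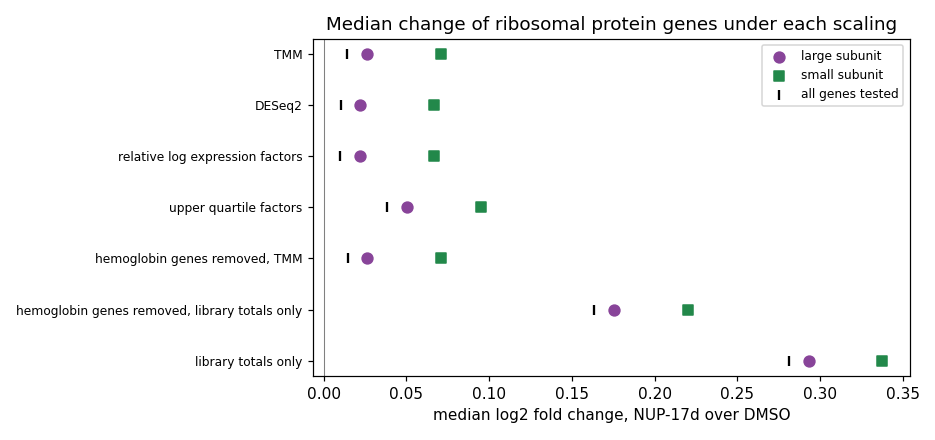
Median log2 fold change, NUP-17d over DMSO, of large subunit genes (circles), small subunit genes (squares) and all genes tested (bars) under 7 ways of scaling. The medians shift together, from 0.03, 0.07 and 0.01 under TMM to 0.29, 0.34 and 0.28 under library totals only, and the small subunit lies above the large subunit in each.

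Mitochondrial ribosomal proteins, made from nuclear genes for the ribosome inside mitochondria, had a median log2 fold change of -0.07 on the TMM scale. Of the 78 genes tested, 1 was called higher (1.28%) and 10 lower (12.8%). Among all genes tested 16.4% were called higher and 18.9% lower. The ratio of summed cytosolic to summed mitochondrial ribosomal protein counts, which needs no scaling and was chosen after seeing the data, was 21.3, 21.2 and 21.2 in DMSO and 22.6, 22.3 and 22.8 in NUP-17d. It was higher by 6.20% without overlap (exact permutation test, two-sided, p = 0.1).

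Rack1 and Fau, components outside the symbol rule, passed the test by edgeR and were higher. Rack1, a scaffold of the small subunit, had 727, 724 and 721 CPM in DMSO and 792, 776 and 814 CPM in NUP-17d (log2 fold change 0.13, SE 0.03, adjusted p = 0.0029). Fau, a fusion of a ubiquitin-like domain with a small subunit protein, had a log2 fold change of 0.12 (SE 0.04, adjusted p = 0.028), and it was not called by DESeq2 (adjusted p = 0.061). Rps3a1 was not called (0.05, SE 0.04, adjusted p = 0.27).

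Translation factors and other mRNAs of the TOP class were split. Of 24 genes tested, 4 were called higher and 7 lower by edgeR, and 3 higher of 10 called by DESeq2. By edgeR these are 16.7% and 29.2% of the list, against 16.4% and 18.9% of all genes. The median of the list was -0.01. Eef1d, an exchange factor subunit of elongation factor 1, had 155, 153 and 156 CPM against 126, 116 and 129 CPM (log2 fold change -0.32, SE 0.04, adjusted p = 2.5e-07). Npm1, the nucleolar protein nucleophosmin, had a log2 fold change of -0.26 (SE 0.03, adjusted p = 4.9e-07), and Hnrnpa1, a splicing regulator, of -0.24 (SE 0.03, adjusted p = 1.7e-06), both on the TMM scale and both 0.01 to 0.03 under library totals alone. Pabpc1, the cytoplasmic poly(A)-binding protein, had a log2 fold change of -0.29 (SE 0.04, adjusted p = 6.6e-06). Vim, the filament protein vimentin, and Eif3f, a subunit of initiation factor 3, were higher by 0.19 each (SE 0.03 and 0.04).

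Of 12 genes that control TOP mRNAs or ribosome production, 1 was called higher and 1 lower by edgeR, and 1 higher and 0 lower by DESeq2. By edgeR that is 8.33% each way, against 16.4% higher and 18.9% lower among all genes. Tsc1, a brake on mTORC1, had 66.4, 61.7 and 61.2 CPM against 75.7, 68.8 and 68.8 CPM (log2 fold change 0.17, SE 0.05, adjusted p = 0.0044). Eif4ebp2, a repressor of cap-dependent translation that mTORC1 inactivates, had a log2 fold change of -0.10 (SE 0.04, adjusted p = 0.045) on the TMM scale and of 0.17 under library totals alone. Larp1 (-0.06, SE 0.03), Mtor (0.09, SE 0.05) and Myc (0.05, SE 0.04) did not pass the test.

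None of 11 assembly and maturation factors, among them Tsr2, the chaperone of Rps26, and Sbds, the factor lost in Shwachman-Diamond syndrome, passed the test by edgeR or by DESeq2, and 4 had an unadjusted p under 0.05 in edgeR. Their log2 fold changes ran from -0.15 to 0.12. Genes that rescue stalled ribosomes or restrain elongation moved further. Of 11 tested, 8 were called lower and 0 higher by edgeR, and 6 lower and 0 higher by DESeq2. A further gene had a higher value at an unadjusted p under 0.05. By edgeR 72.7% of the list was called lower, against 18.9% of all genes and 38.4% of genes averaging 1000 counts or more. The median of the list was -0.19. Rnf10, a ligase that marks small subunit proteins of stalled ribosomes, had 1544, 1430 and 1471 CPM in DMSO and 932, 899 and 969 CPM in NUP-17d (log2 fold change -0.67, SE 0.04, adjusted p = 1.3e-13). Ube2o, the ubiquitin enzyme that removes ribosomes during reticulocyte maturation, had 2781, 2543 and 2564 CPM against 1879, 1784 and 1852 CPM (log2 fold change -0.52, SE 0.04, adjusted p = 4.2e-11). Eef2k, the kinase that slows elongation, had a log2 fold change of -0.37 (SE 0.04, adjusted p = 8.2e-09) and Nemf, a subunit of the quality control complex of the large subunit, of -0.33 (SE 0.04, adjusted p = 2.4e-07). These falls lay outside the range of all 80 ribosomal protein genes tested, and they moved beside the erythroid markers, whose part in them was not tested.

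**Figure D5:**
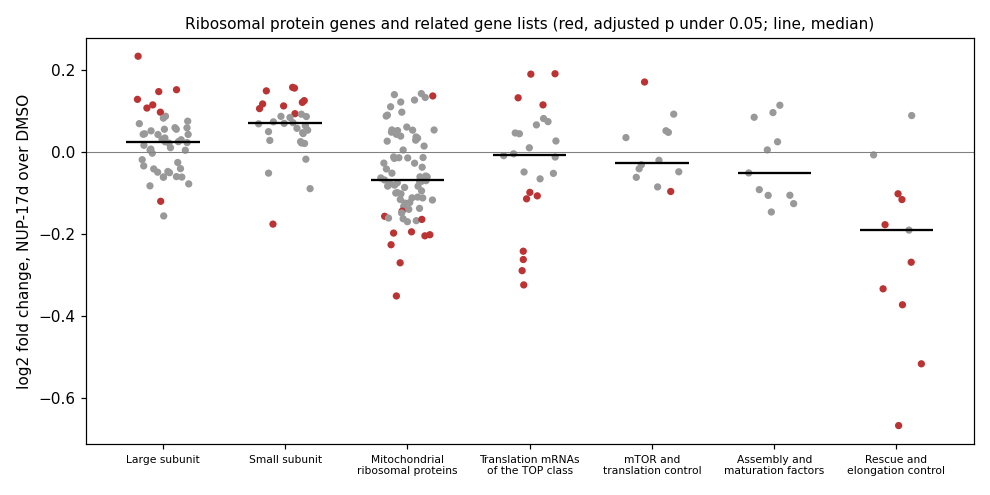
Log2 fold change, NUP-17d over DMSO on the TMM scale, of each tested gene of the large and small subunit, of mitochondrial ribosomal proteins and of 4 related lists (points; red, called; black line, median). The 80 ribosomal protein genes lie between -0.18 and 0.23, while the rescue and elongation list reaches -0.67 with Rnf10.

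Ribosomal protein genes have many processed copies, and reads from near-identical sequences may be split between them. In 64 of the 83 genes the expected counts were whole numbers within 0.01 in every library, and in 19 they were not, as happens when a read is shared among genes. Of the 62 tested genes with whole counts 16 were called, and their median log2 fold change was 0.04. Of the other 18, 2 were called, and the median was 0.05. Rpl37 is uncertain in this way, since Rpl37rt, a retrotransposed copy, had 141 to 163 CPM in DMSO against 99.1 to 113 CPM for Rpl37 itself. Rpl34-ps1, a pseudogene row singled out after its values were seen, had 12.4, 24.3 and 18.01 CPM in DMSO and 24.7, 26.3 and 32.7 CPM in NUP-17d (log2 fold change 0.61, SE 0.13, adjusted p = 0.0004), while Rpl34 had a log2 fold change of 0.01 (SE 0.04).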

How the data were processed

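The data were 6 RNA-seq libraries of poly(A)-selected RNA from mouse BM cultures, 3 with DMSO and 3 with NUP-17d. Per the labels, cDNA was made with random primers and sequenced on a DNBseq instrument, and the genome build was mm10; the aligner and the counting tool were not given in the sources used here. The authors deposited, per gene and library, the length in bases, expected counts and FPKM, which is normalised for length and library size, and a gene missing from a library was set to 0. The depth ranged from 20076409 to 20419018 counts.

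Expected counts were rounded. Genes were filtered with filterByExpr, scaled with TMM and tested with edgeR 4.0.16 (R 4.3.3) over all 12306 genes that passed, with Benjamini-Hochberg adjustment at 0.05. Single values per library were compared with two-sided exact permutation tests (SciPy). Alternatives were DESeq2 1.42.0, other scalings, hemoglobin genes removed, no filter, limma 3.58.1 on log2(FPKM + pseudocount), a replicate block, added pseudogene rows and each culture left out. The edgeR, DESeq2 and limma fits were tested on simulated data. Those data had no built-in shift in composition, so the test did not address the choice of scaling.

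The members and lists were chosen with earlier results of these data known. Genes named are the 8 largest rises and falls among called members without overlap, the 5 highest and 5 lowest by FPKM, the paralog pairs, selected genes of known role, and up to 4 per list and direction by p; other called members are listed by name. Gene positions and windows come from RefSeq GRCm38.p6. No protein sequences were used here. Results for some genes are not reported here.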

Additional observations from a re-analysis of the deposited data

How the results depend on the processing

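Library scaling was the choice that moved the ribosomal protein results most. Scaled by library totals only, 48 large and 31 small subunit genes were called, with medians of 0.293 and 0.338. With hemoglobin genes removed and totals only, 44 and 29 were called, with medians of 0.175 and 0.220. Limma on log2(FPKM + 1) called 49 and 31, with medians of 0.294 and 0.341, limma on log2(FPKM + 0.1) called 49 and 31, with medians of 0.295 and 0.341, and limma with a mean FPKM of at least 1 called 48 and 31, with medians of 0.296 and 0.341. The medians of all genes were 0.281, 0.163, 0.141, 0.226 and 0.236 in these 5 settings. None of these settings applies a scaling factor for composition, and removing hemoglobin genes takes out only their own part of the shift.

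Under library totals only, genes with a negative value on the TMM scale became positive, and either value passed the threshold: Rps2 0.092, Rplp0 0.21, Rpl41 0.15, Rpl7l1 0.18, Rpl22l1 0.26, Rps27l 0.18, Rpl3 0.19, Rpl7 0.21, Rpl10 0.21, Rpl36a 0.25, Rpl36al 0.22, Rpl11 0.23, Rpsa 0.25, Rplp1 0.21, Npm1 0.0051, Hnrnpa1 0.026 and Eif4ebp2 0.17. Under limma on FPKM the same 17 genes did so, with Rps2 0.10, Rpl22l1 0.27, Rpl11 0.24, Npm1 0.0061 and Hnrnpa1 0.031, with Rpl7l1 0.19 and Eif4ebp2 0.18 at a pseudocount of 0.1, and with the others at the values just given. With hemoglobin genes removed and totals only, Rplp0 0.089, Rpl41 0.030, Rpl3 0.072, Rpl7 0.089, Rpl10 0.089, Rpl36a 0.13, Rpl11 0.12, Rpsa 0.13, Rplp1 0.090 and Eif4ebp2 0.054 did so.

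The other scalings, DESeq2, no filter, added pseudogene rows and genes with whole counts alone kept both counts within 1.5 times and both medians within the spread between cultures. Leaving out 1 culture gave 4 to 9 large and 5 to 13 small subunit genes, with medians of -0.01 to 0.04 and 0.04 to 0.09. The rise of the share stayed between 21.6% and 24.2%, that of the cytosolic to mitochondrial ratio between 5.63% and 6.81%, and the fall of the large to small subunit ratio between -1.86% and -1.51%. The change in the log2 ratio of Rps27l to Rps27 stayed between -0.26 and -0.24, while those of Rpl7l1 (-0.080 to 0.039), Rpl22l1 (-0.14 to 0.062) and Rpl36al (-0.074 to 0.025) to their partners changed sign. The replicate block called 12 large subunit genes (9 higher, 3 lower) and 13 small subunit genes (12 higher, 1 lower), against 8 and 10 without it. Same-numbered cultures did not deviate together (correlations of 0.03, -0.02 and -0.03, against -0.06 to 0.08 for differently numbered cultures). Such correlations cannot show how the cultures were set up, and the labels do not say whether the numbers pair them.

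At 20076409 to 20419018 counts a library and 3 cultures a group, the standard error of most ribosomal protein genes was near 0.04 on the log2 scale, and smaller changes could not be told from 0.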
